A study of Mus musculus with 16 samples.

Results

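Molecular chaperones of the mouse hippocampus were followed across 4 groups of female mice, set apart by genotype at Crebbp and by cage type. The set was given as a list of 39 genes: 20 heat shock proteins and co-chaperones of the cytosol, 14 chaperones of the endoplasmic reticulum (ER), 3 of mitochondria and 2 heat shock transcription factors. A gene was measured through the probe set with the highest mean signal among those that name only that gene, which left 36 measured members of 19935 measured genes. They were 18 cytosolic, 14 ER and 3 mitochondrial chaperones and the transcription factor Hsf2. Hspa1b, Hsp90ab1 and the transcription factor Hsf1 had no probe set of their own symbol alone and have no value here.

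RNA was read on 16 Affymetrix Mouse Gene 1.0 ST arrays, each holding a pool of equal RNA amounts from 4 animals, 64 animals in all. The groups were cbp+/- mice kept in environmental enrichment (CBP_EE, 3 arrays), cbp+/- mice in standard cages (CBP_SC, 5 arrays), wild-type littermates in enrichment (WT_EE, 3 arrays) and wild-type littermates in standard cages (WT_SC, 5 arrays). The cbp+/- mice were heterozygous for a deficiency of Crebbp, which encodes CBP, a histone acetyltransferase and transcriptional coactivator. All mice were 3 months old and came from an F2 cross of C57BL/6J and DBA. Enrichment was 2 weeks in a large box with wheels, tubing and toys, and tissue was taken 16 hours or more after the box had last been rearranged. The comparisons ask how chaperone RNA responded to enrichment in each genotype, whether it depended on Crebbp, and whether both responses differed.

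Chaperones bind unfolded proteins and help them fold, refold or be degraded. In the cytosol, HSP70 proteins work with DNAJ co-chaperones and nucleotide exchange factors and hand clients to HSP90, while small heat shock proteins hold unfolded proteins. The heat shock factor HSF1 switches on the inducible members through heat shock elements in their promoters. In the ER, BiP (Hspa5), GRP94 (Hsp90b1), the lectins calnexin and calreticulin and the protein disulfide isomerases fold secreted and membrane proteins. Their genes are induced in the unfolded protein response through ER stress elements, which ATF6 and XBP1 bind together with NF-Y. Neurons carry a high load of membrane and secreted proteins, and their heat shock response is known to be weaker than that of many other cells.

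These controlling elements divide the cytosolic and the ER genes, so the promoters of 5 members are shown first. RefSeq windows of 300 bases, from 250 before to 50 after the start of a transcript (build GRCm38.p6), were at hand for 27025 genes and for 31 of the 39 listed members. The missing ones were Cryab, Hsf1, Hsp90aa1, Hsp90ab1, Hspa13, Hspa8, Hspa9 and Manf. The lines below give the 250 bases before the start on the strand of the gene, 5′ to 3′. Capitals mark the heat shock element of Hspa1a, an inducible HSP70, and the adjoining elements of Hspd1, the mitochondrial HSP60. They mark the ER stress elements of Hspa5, Hsp90b1 and Calr (calreticulin); the one of Calr and the second one of Hsp90b1 run on the other strand.
Hspa1a, chr17:34972157-34972406, minus strand: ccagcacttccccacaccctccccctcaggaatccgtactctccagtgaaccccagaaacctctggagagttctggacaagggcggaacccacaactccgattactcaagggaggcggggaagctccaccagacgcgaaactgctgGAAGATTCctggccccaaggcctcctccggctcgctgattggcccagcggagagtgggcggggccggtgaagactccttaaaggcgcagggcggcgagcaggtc
Hspd1, chr1:55087933-55088182, minus strand: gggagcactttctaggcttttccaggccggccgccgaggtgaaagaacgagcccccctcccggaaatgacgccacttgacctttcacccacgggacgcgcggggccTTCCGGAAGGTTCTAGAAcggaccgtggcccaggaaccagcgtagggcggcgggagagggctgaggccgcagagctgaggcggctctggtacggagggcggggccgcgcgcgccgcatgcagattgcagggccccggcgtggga
Hspa5, chr2:34771840-34772089, plus strand: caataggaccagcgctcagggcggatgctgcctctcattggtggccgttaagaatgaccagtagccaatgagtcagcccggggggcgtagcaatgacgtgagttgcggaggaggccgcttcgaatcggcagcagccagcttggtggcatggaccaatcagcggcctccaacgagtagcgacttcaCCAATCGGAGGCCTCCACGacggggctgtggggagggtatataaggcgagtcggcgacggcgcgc
Hsp90b1, chr10:86705445-86705694, minus strand: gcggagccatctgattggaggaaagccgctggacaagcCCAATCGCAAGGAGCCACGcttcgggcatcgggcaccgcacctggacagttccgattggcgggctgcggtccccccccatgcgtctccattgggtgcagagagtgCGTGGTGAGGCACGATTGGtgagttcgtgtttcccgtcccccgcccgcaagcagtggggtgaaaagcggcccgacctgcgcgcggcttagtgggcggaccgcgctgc
Calr, chr8:84846932-84847181, minus strand: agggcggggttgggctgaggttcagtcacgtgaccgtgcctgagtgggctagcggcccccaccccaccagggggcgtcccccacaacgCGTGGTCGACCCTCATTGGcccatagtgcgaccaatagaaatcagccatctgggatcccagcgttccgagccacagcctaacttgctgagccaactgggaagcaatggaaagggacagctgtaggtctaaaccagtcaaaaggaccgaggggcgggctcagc

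The ER stress element was searched as CCAAT, then any 9 bases, then CCACG, on both strands of the whole 300-base window. It stood in 7 of 12 ER members (58.3%), against 0.137% of all genes (37 genes), and in 0 of 16 cytosolic members. The 7 were Hspa5, Hsp90b1, Calr, Canx (calnexin), Pdia6 (a disulfide isomerase), Dnajc3 (a BiP co-chaperone and inhibitor of the kinase PERK) and Creld2 (a secreted ER stress protein). In Hspa5 the match began 65 bases before the start, and in Calr 162 bases before it. The last part of the element, CCACG, was present alone or within it in 11 of 12 ER members, 8 of 16 cytosolic members, both mitochondrial members and Hsf2, and in 35.5% of all genes.

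The minimal heat shock element was searched as GAANNTTC, also on both strands. It stood in 8 of 16 cytosolic members, against 9.04% of all genes, and in 0 of 12 ER members. The 8 were Hspa1a, Hspa1b, Hsph1, Hspb1, Hspb8, Dnaja1, Bag3 and Chordc1, and both mitochondrial members with a window, Hspd1 and Hspe1, held it too. The longer form adds any 2 bases and a further GAA to the shorter one and so contains it. It stood in Hsph1, Chordc1, Hspd1 and Hspe1, against 0.662% of all genes. Hspd1 and Hspe1 lie head to head on chromosome 1 and share these elements: the same 2 matches, GAAggTTCtaGAA and GAAccTTCcgGAA, were found in both windows. The palindromic cAMP response element TGACGTCA, to which CREB binds and through it CBP, stood in 0 of 31 members and in 2.03% of all genes, and the unfolded protein response element TGACGTGG in 0 of 31 members and 0.714% of all genes. A match is a description of the sequence and no measurement of binding.

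**Figure D1:**
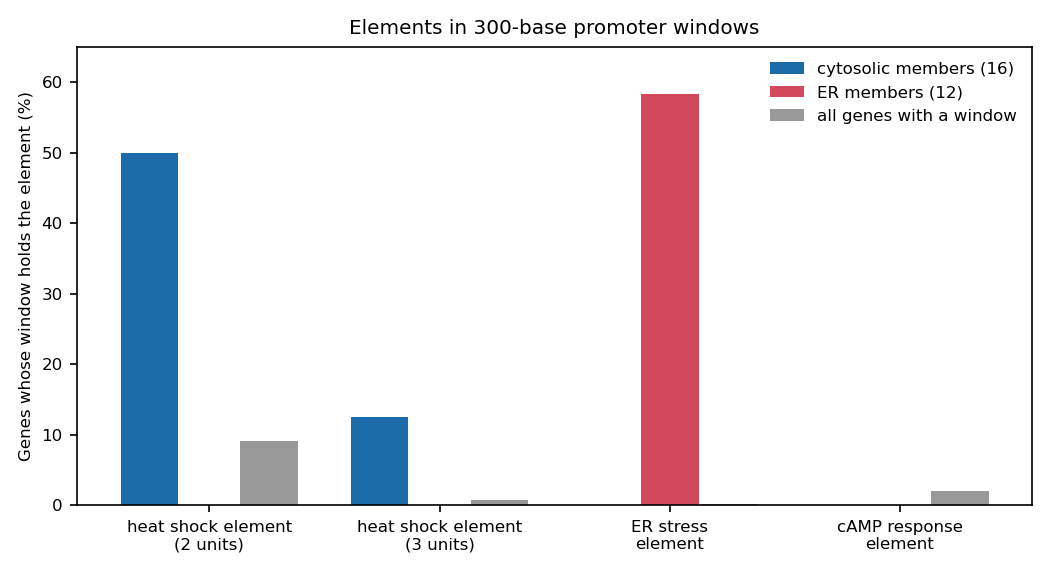
Share of genes (%) whose 300-base promoter window holds each element, for cytosolic members (blue), ER members (red) and all genes (grey). The ER stress element was found in 58.3% of ER members and 0.137% of all genes, and the minimal heat shock element in 8 of 16 cytosolic members and 9.04% of all genes.

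The arrays fell into 4 sets that cross the groups: set 1 held replicates 1 and 2 of every group, set 2 replicate 3 and set 3 replicate 4 of both standard-cage groups, and set 4 replicate 5 of both standard-cage groups with replicate 3 of both enriched groups. The sets were clustered from these arrays and no label names them. Only sets 1 and 4 hold both housings, and values within them stand beside the leading housing results. Median intensity per array was 76.7 to 85.46. Markers of neurons (Snap25, 11.89 mean log2 signal), dentate granule cells (Prox1, 8.43) and astrocytes (Slc1a3, 10.17) were present. The defining choroid plexus gene Ttr reached 12.69 on CBP_SC_3, against 7.14 to 10.90 on the other arrays, and the median deviation of 5 choroid plexus markers was 1.52 there and -0.34 to 0.20 elsewhere. Crebbp gave no lower signal on arrays with the label cbp+/-: log2 values were 9.36 ± 0.025 in CBP_EE and 9.26 ± 0.083 in WT_EE (SD, n = 3 each), and 9.57 ± 0.22 in CBP_SC and 9.43 ± 0.18 in WT_SC (n = 5 each). Where its probes lie relative to the mutated stretch is not known here, so the genotype labels were neither borne out nor contradicted by it.

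Chaperone genes gave bright signals. Of the 36 members, 20 were among the brightest 10% of genes and 35 lay above the median gene. Mean log2 signals ran from 6.06 for the small heat shock protein gene Hspb1 to 12.27 for Hspa8, the constitutive HSP70, and 12.17 for Hsp90aa1, an HSP90 isoform. Signals of different probe sets are not compared as amounts of RNA. Brightness matters for the comparisons, because the deposited values of bright genes shifted between groups: among the brightest 10% the median housing difference of all genes was -0.0207 in cbp+/- and -0.0869 in wild-type mice, against 0.0107 and 0.0316 over all brightness classes. In whole hippocampus, a change in RNA per cell and a change in the share of a cell type cannot be told apart.

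**Figure D2:**
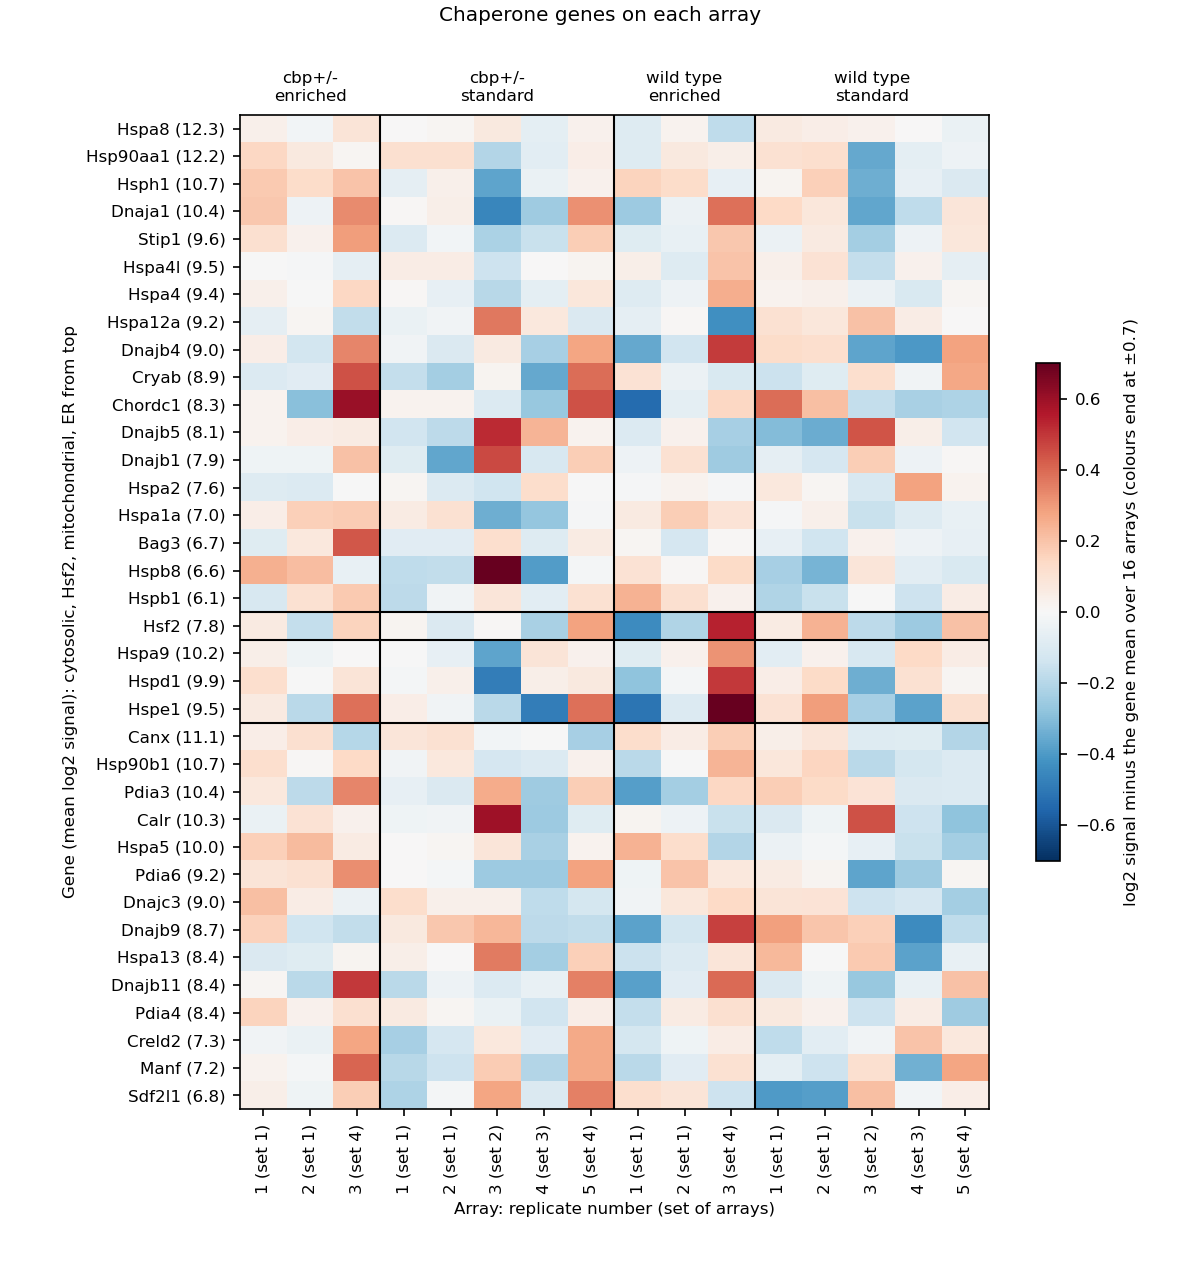
Log2 signal of the 36 members minus each gene's mean over 16 arrays (colour), with arrays in columns by group and replicate number, and genes in rows by compartment from bright to dim with the mean in brackets. Replicate 3 of both standard-cage groups (set 2) shows high Calr and Dnajb5 and low Hsph1, Hsp90aa1 and Hspd1.

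In cbp+/- mice no chaperone RNA passed the test between enrichment and standard cages. Most differences were small and positive, and the size of their median rested largely on 1 enriched array. Of 36 members, 28 had a positive difference (14 of 18 cytosolic, 10 of 14 ER, 3 of 3 mitochondrial, and Hsf2), where 55.5% of all genes did. The median difference was 0.0888 log2 for all members, 0.0888 for cytosolic and 0.0895 for ER members, against 0.0107 over all genes. These medians are a description with no test. With limma and Benjamini-Hochberg adjustment over 21780 probe sets, 0 members had an adjusted p under 0.05 (0% of all genes). At an unadjusted p under 0.05 there were 2 of 36, both higher, against 1.56% of all genes higher, 1.19% lower and 2.75% in either direction. The leading members were the inducible HSP70 gene Hspa1a and the HSP110 gene Hsph1.

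Hspa1a had log2 signals of 6.999, 7.12 and 7.13 in CBP_EE, against 7.01, 7.06, 6.61, 6.68 and 6.94 in CBP_SC. The enriched arrays were close together, and the lowest of them lay just under the 2 highest standard-cage arrays. The difference was 0.22 log2 (95% interval 0.0267 to 0.421, adjusted p = 0.999 with limma). It was 0.0281 within set 1 and 0.185 within set 4, and 0.16 without CBP_SC_3. The lowest CBP_SC arrays were those of sets 2 and 3, which hold no enriched mice.

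Hsph1, a nucleotide exchange factor for HSP70, had 10.87, 10.81 and 10.88 in CBP_EE, against 10.62, 10.72, 10.32, 10.64 and 10.72 in CBP_SC. Every enriched array lay above every standard-cage array, as in 1.71% of all genes; 0 members lay wholly below, against 1.18% of all genes. The difference was 0.25 log2 (0.0216 to 0.479, adjusted p = 0.999). It was 0.166 within set 1 and 0.166 within set 4, and 0.18 without CBP_SC_3, the array with high choroid plexus markers and the lowest Hsph1. The part of those markers in the result was not tested. Stip1, which links HSP70 to HSP90, had 9.70, 9.62 and 9.88 in CBP_EE and 9.49, 9.57, 9.37, 9.43 and 9.76 in CBP_SC. These groups overlapped at CBP_SC_5, with a difference of 0.21 (-0.00375 to 0.416, adjusted p = 0.999). It was 0.125 within set 1, 0.12 within set 4 and 0.131 with sets blocked.

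Among ER members Hspa5 and Pdia6 had the smallest p in cbp+/- mice. Hspa5, the BiP gene, had 10.17, 10.22 and 10.05 in CBP_EE, against 10, 10.01, 10.08, 9.77 and 10.02 in CBP_SC. The difference was 0.17 log2 (-0.033 to 0.37, adjusted p = 0.999), and CBP_SC_3 lay above the lowest enriched array. Within set 1 it was 0.187 and within set 4 0.0331. Pdia6 had 9.32, 9.33 and 9.56 in CBP_EE, against 9.24, 9.22, 8.98, 8.98 and 9.51 in CBP_SC. The set 4 arrays were the highest in each group, and the difference was 0.22 (-0.0519 to 0.493, adjusted p = 0.999). It was 0.10 within set 1, 0.0452 within set 4, 0.083 with sets blocked and 0.144 without CBP_EE_3.

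The other ER members with an ER stress element in the window did not move as 1 block in cbp+/- mice. Their differences were 0.12 for Hsp90b1, 0.094 for Dnajc3, 0.085 for Creld2, -0.012 for Calr and -0.0024 for Canx. The interval of each included 0. Differences of the other ER members ran from -0.12 for Hspa13, an HSP70-like protein of microsomes, to 0.16 for Manf, a secreted ER stress protein. Pdia4 and Pdia3, further disulfide isomerases, had 0.11 and 0.072, Dnajb9, a BiP co-chaperone induced in ER stress, had -0.077, and Sdf2l1, an ER co-chaperone partner, had 0.00015.

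The remaining cytosolic members in cbp+/- mice lay between -0.13 for Hspa12a, an atypical HSP70, and 0.23 for Dnaja1, a DNAJ co-chaperone. The constitutive chaperones Hspa8 and Hsp90aa1 had 0.027 and 0.076, and Bag3, an HSP70 partner in selective autophagy, 0.16. Small heat shock protein genes had 0.077 (Hspb1), 0.14 (Hspb8) and 0.16 (Cryab, αB-crystallin). Dnajb1 and Dnajb5, DNAJ co-chaperones of the inducible class, had 0.036 and -0.049. The mitochondrial HSP70 gene Hspa9 had 0.068, and Hspd1 and its partner Hspe1 (HSP10) 0.14 and 0.14.

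**Figure D3:**
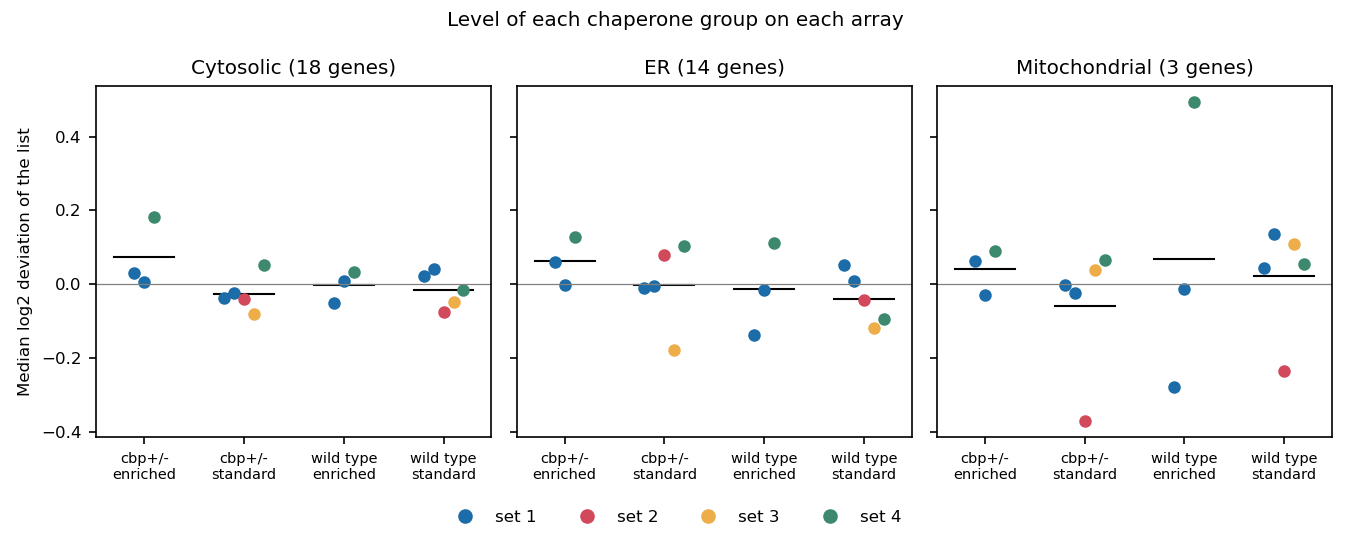
Median deviation of each chaperone group from the genes' means (log2) on every array, coloured by set, with the group mean as a bar. In cbp+/- mice the highest cytosolic value was that of CBP_EE_3 at 0.182, and in wild-type mice the mitochondrial values of enriched arrays ran from -0.279 to 0.494.

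The size of the shift in cbp+/- mice rested on CBP_EE_3, an array of set 4. The median deviation of all members was 0.044, -0.0065 and 0.15 on the CBP_EE arrays, against -0.0091, -0.019, 0.014, -0.12 and 0.061 on the CBP_SC arrays, so the groups overlapped. Without CBP_EE_3 the median difference was 0.00459 over all members, 0.00459 over cytosolic and 0.00621 over ER members. The enriched arrays then left were all of set 1, while the CBP_SC arrays came from all 4 sets. Within sets the median difference over all members was 0.0437 in set 1, with 27 of 36 members higher, and 0.0411 in set 4, with 25 higher. All genes had 0.0214 and -0.00821 in the same sets. Some lists of cell type markers also stood apart on CBP_EE_3. The median deviation there was -0.324 for dentate granule, -0.266 for astrocyte, -0.197 for CA pyramidal, -0.161 for neuron and -0.345 for choroid plexus markers. It was -0.040 for oligodendrocyte, -0.056 for endothelial and 0.033 for microglia markers, and 0.053 for the 1 blood marker. On WT_EE_3, also of set 4, oligodendrocyte markers had -0.445, astrocyte markers -0.292 and neuron markers -0.219. Microglia markers had 0.078 there, the blood marker 0.044 and the remaining lists -0.276 to -0.163. The part of these markers in the results was not tested.

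In wild-type mice the chaperones were split in direction on the deposited scaling, while 31 of 36 were higher after quantile normalization. Of 36 members, 22 had a positive difference between enrichment and standard cage (11 of 18 cytosolic, 8 of 14 ER, 3 of 3 mitochondrial), where 59.2% of all genes did. All members have a mean log2 signal above 6, and among the 12255 genes of at least that brightness only 40% were higher, with a median of -0.0397. The median was 0.0495 log2 over all members, 0.050 over cytosolic and 0.0385 over ER members, against 0.0316 over all genes. With limma, 0 members and 0% of all genes passed an adjusted p of 0.05. At an unadjusted p under 0.05, 1 of 36 was higher and 1 lower, against 14.6% of all genes higher, 3.5% lower and 18.1% in either direction.

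Hspb1 was the member that was higher, with 6.30, 6.17 and 6.09 in WT_EE, against 5.85, 5.91, 6.06, 5.92 and 6.12 in WT_SC. It is a dim probe set, and the lowest enriched array lay below WT_SC_5. The difference was 0.22 log2 (0.0353 to 0.406, adjusted p = 0.214), and 0.361 within set 1 against -0.0258 within set 4. Hspa12a was the member that was lower, with 9.12, 9.18 and 8.75 in WT_EE, against 9.29, 9.26, 9.38, 9.23 and 9.18 in WT_SC. Its difference was -0.25 (-0.484 to -0.0177, adjusted p = 0.25), and -0.12 without WT_EE_3. Part of both differences was shared with genes of like brightness. The median difference of all genes was 0.132 in the brightness class of Hspb1 and -0.0869 in that of Hspa12a.

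Hspa1a in wild-type mice had 7.01, 7.12 and 7.05 in WT_EE, against 6.94, 6.99, 6.79, 6.86 and 6.90 in WT_SC. All enriched arrays lay above all standard-cage arrays, as in 9.48% of all genes; 0 members lay wholly below, against 1.9% of all genes. The difference was 0.16 log2 (-0.0349 to 0.359, adjusted p = 0.368), and it was 0.10 within set 1 and 0.147 within set 4. Hsph1 had 10.84, 10.81 and 10.63 in WT_EE and 10.70, 10.85, 10.34, 10.63 and 10.59 in WT_SC. Its groups overlapped, with a difference of 0.14 (-0.0888 to 0.369, adjusted p = 0.508). It was 0.0497 within set 1, 0.0446 within set 4, 0.0517 with sets blocked and 0.0701 without WT_SC_3.

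Of the ER members, Hspa5 had 10.24, 10.12 and 9.79 in WT_EE, against 9.95, 9.99, 9.94, 9.84 and 9.76 in WT_SC. The 2 enriched arrays of set 1 lay above all standard-cage arrays and the one of set 4 near the lowest, and the difference was 0.15 log2 (-0.0472 to 0.356, adjusted p = 0.402). It was 0.21 within set 1 and 0.0314 within set 4. Canx had 0.17 (-0.0239 to 0.355, adjusted p = 0.339), with 0.0236 within set 1 and 0.374 within set 4. Pdia6 had 0.19, which was 0.0489 with sets blocked, and Dnajc3 0.13. Pdia3 had -0.20 (-0.509 to 0.106, adjusted p = 0.478). Hsp90b1, Pdia4 and Sdf2l1 had 0.049, 0.050 and 0.13, while Calr, Creld2, Manf and Dnajb9 lay between -0.035 and -0.014. The cytosolic Hspa8 had -0.0997 (-0.206 to 0.00708, adjusted p = 0.311), Hsp90aa1 0.055, Dnajb1 -0.052, Dnajb5 -0.037, Bag3 0.020, Cryab -0.043 and Stip1 0.053.

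The wild-type arrays moved in opposite directions in the 2 sets that hold both housings. The median difference over all members was -0.0708 within set 1 (14 of 36 higher) and 0.142 within set 4 (26 of 36 higher). All genes had 0.0484 and 0.0214 in these sets. WT_EE_1, of set 1, had the lowest interquartile range of log2 signals of all arrays (2.30), and its part in these values was not tested. The mitochondrial pair shows the spread: Hspe1 had 9.01, 9.43 and 10.25 in WT_EE, against 9.62, 9.81, 9.29, 9.15 and 9.64 in WT_SC. Its enriched arrays covered more than the whole range of the standard-cage arrays, with -0.501 within set 1 and 0.611 within set 4. Dnajb9 had -0.494 and 0.66 in the same sets, Chordc1, an HSP90 partner, -0.605 and 0.359, and Hsp90b1 -0.212 and 0.331. Set 4 rests on 1 array per group. The median of all members turned to -0.0327 without WT_EE_3 and to -0.00471 with the array sets as a block.

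**Figure D4:**
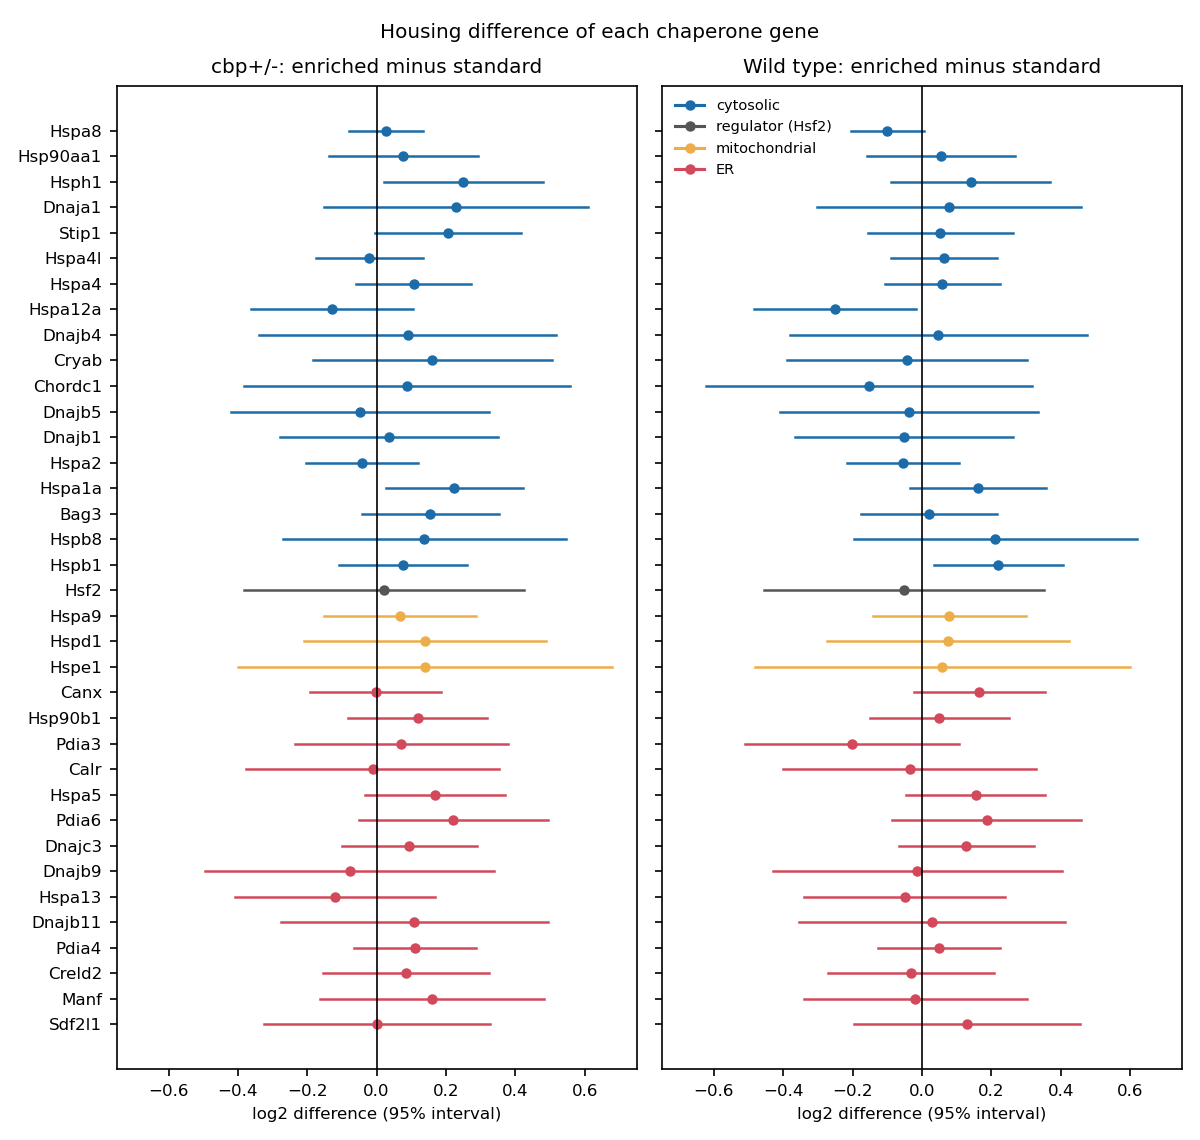
Difference between enrichment and standard cage (log2, point) with its 95% interval (line) for each member in cbp+/- (left) and wild-type mice (right). Intervals exclude 0 for Hspa1a and Hsph1 in cbp+/- mice and for Hspb1 and Hspa12a in wild-type mice, and no adjusted p was under 0.05.

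Averaged over both genotypes, the same few members stood nearest to the threshold. With limma, 0 members and 0% of all genes passed an adjusted p of 0.05. At an unadjusted p under 0.05, 5 of 36 members were higher, where 13.9% of all genes were, and 1 was lower, where 5.44% were (19.3% in either direction). With dim genes left out, the shares of all genes were 5.1% higher and 7.42% lower. Hspa1a had 0.19 (0.0536 to 0.332, adjusted p = 0.175), Hsph1 0.20 (0.0334 to 0.357, adjusted p = 0.201), Pdia6 0.20 (0.0108 to 0.396, adjusted p = 0.244), Hspa5 0.16 (0.019 to 0.304, adjusted p = 0.219) and Hspb1 0.15 (0.0178 to 0.28, adjusted p = 0.218). Hspa12a had -0.19 (-0.355 to -0.0251, adjusted p = 0.214). The median of all genes for this average was 0.0956 in the brightness class of Hspb1 and -0.00697 in that of Hspa1a. It was -0.0516 in the class of Hsph1, Pdia6, Hspa5 and Hspa12a. With array sets as a block, Hspa1a had 0.098, Hsph1 0.107, Pdia6 0.0659, Hspa5 0.143, Hspb1 0.162 and Hspa12a -0.121. The median over members was 0.0694 (25 of 36 higher), against 0.0231 over all genes, of which 59.6% were higher.

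How many members were higher depended on the scaling of the arrays. After quantile normalization, which gives all arrays the same distribution of signals, 31 of 36 members were higher in enrichment in cbp+/- mice (median 0.128) and 31 in wild-type mice (median 0.122), where 50.9% and 50.7% of all genes were. No member passed the adjusted threshold under this scaling either. The difference between both housing responses had a median of 0.061 over members, with 26 of 36 positive, and 41.8% of all genes positive. With quantile normalization it was 0.0143 with 19 positive. In this interaction, limma called 0 members (0% of all genes), and 0 of 36 had an unadjusted p under 0.05, against 2.76% of all genes (0.391% positive and 2.37% negative). Hspa8 had the smallest p (0.13, -0.0238 to 0.278, adjusted p = 1.00), followed by Canx (-0.17) and Pdia3 (0.27). Further probe sets of Hspa8 had 0.086 (-0.0643 to 0.237) and 0.058 (-0.447 to 0.562). With array weights 1 member was called in the interaction, Pdia3 (0.45, adjusted p = 0.0466), as were many probe sets outside the list. With dim genes left out, 56.1% of all genes were positive.

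**Figure D5:**
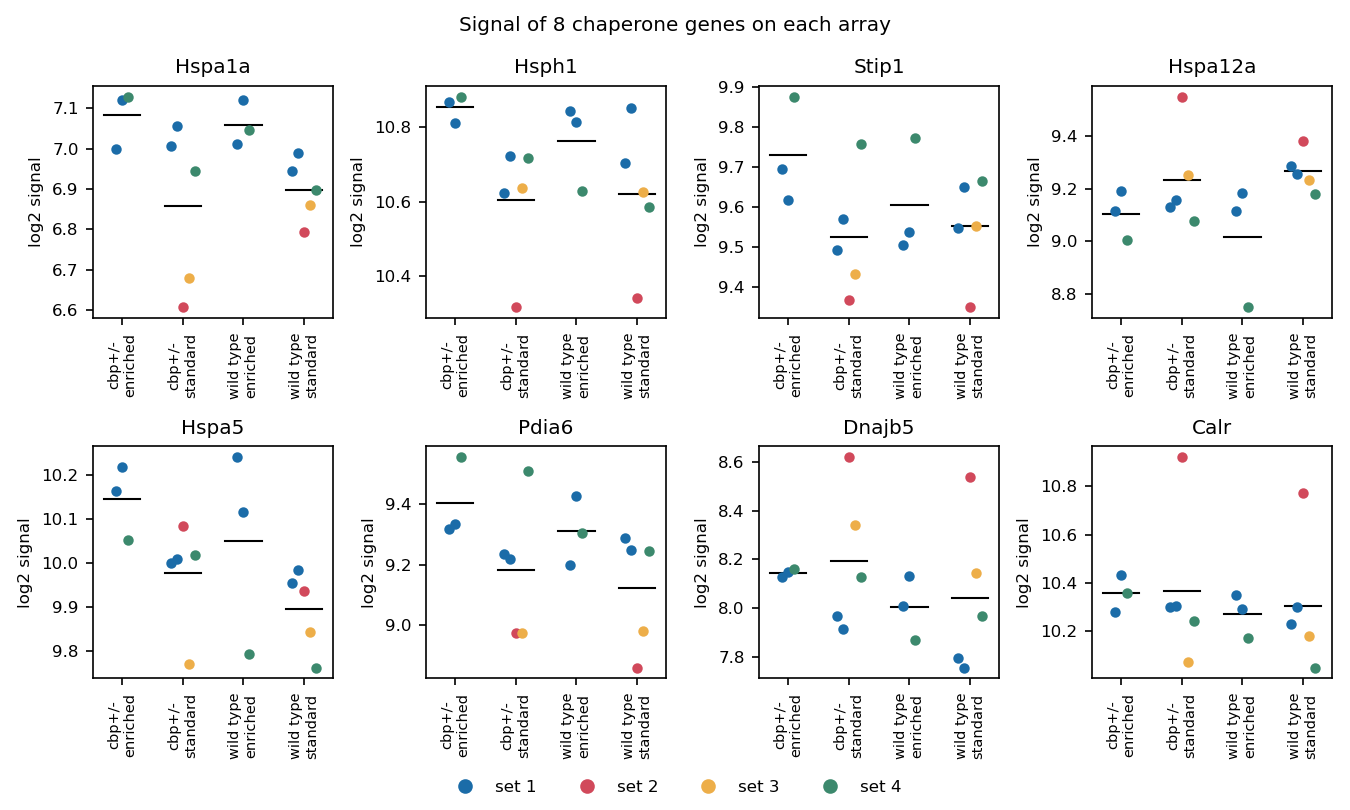
Log2 signal of 8 members on every array, coloured by set, with the group mean as a bar. Hsph1 lay at 10.81 to 10.88 in CBP_EE and at 10.32 to 10.72 in CBP_SC, Calr was highest in set 2 in both standard-cage groups (10.92 in CBP_SC and 10.77 in WT_SC), and Dnajb5 was higher in cbp+/- mice in every same-numbered pair.

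In standard cages, no chaperone RNA passed the test between the arrays labelled cbp+/- and wild type. With limma, 0 members passed the adjusted threshold (0% of all genes), and 0 of 36 had an unadjusted p under 0.05, against 1.01% of all genes (0.517% higher and 0.492% lower). With same-numbered arrays as pairs, 1 of 36 was higher and 0 lower at that p, against 2.18% and 2.33% of all genes. Groups did not overlap for 0 members, against 0.181% of all genes higher and 0.0903% lower. The median was 0.0171 log2 over all members, -0.000085 over cytosolic and 0.0399 over ER members, against 0.00491 over all genes. Among ER members 12 of 14 were higher in cbp+/- mice, the exceptions being Pdia3 (-0.036) and Creld2 (-0.017), where 54% of all genes were higher. The ER median was 0.000687 without WT_SC_5, and with array weights the median of all members was -0.0339 with 13 of 36 higher. The largest ER difference was that of Sdf2l1, 0.17 (-0.114 to 0.451, adjusted p = 1.00). Hspa5 had 0.080 (-0.0943 to 0.255, adjusted p = 1.00), Hspb1 0.074 and Hspa2, an HSP70 abundant in testis, -0.076 (-0.216 to 0.0633, adjusted p = 1.00).

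In enrichment, 28 of 36 members were higher in cbp+/- than in wild-type mice, where 41.1% of all genes were. The median was 0.0856 log2 over all members, 0.0893 over cytosolic and 0.0883 over ER members, against -0.0215 over all genes (0.019 with dim genes left out, of which 56.3% were higher) and 0.0418 over the brightest 10% of them. With quantile normalization it was 0.0422 with 26 higher, and without WT_EE_1 it was 0.0174. Limma called 0 members (0% of all genes), and 0 of 36 had an unadjusted p under 0.05, against 5.43% of all genes (1.2% higher and 4.23% lower). Groups did not overlap for 0 members, against 3.67% of all genes higher and 7.03% lower. With same-numbered arrays as pairs, 3 of 36 were higher at an unadjusted p under 0.05, against 6.48% of all genes. They were Manf (0.19, SE 0.0629, adjusted p = 0.322), Dnajb5 (0.14, SE 0.0573, adjusted p = 0.355) and Stip1 (0.125, SE 0.0543, adjusted p = 0.375), of which Manf and Stip1 were chosen for this count. With array weights Pdia3 (0.29, adjusted p = 0.0179) and Hspb1 (-0.198, adjusted p = 0.0372) were called, as were many probe sets outside the list. In the unpaired fit, Hspa8 came nearest, with 12.31, 12.26 and 12.37 in CBP_EE, against 12.18, 12.30 and 12.10 in WT_EE. The groups overlapped at WT_EE_2, and the difference was 0.12 (-0.000937 to 0.238, adjusted p = 0.924). Further probe sets of Hspa8 had 0.088 (-0.0312 to 0.207) and 0.15 (-0.249 to 0.549). Bag3 had 0.17 (-0.0483 to 0.392, adjusted p = 0.927), Pdia3 0.24 (-0.107 to 0.581, adjusted p = 0.935), Manf 0.19 (-0.167 to 0.552, adjusted p = 0.949) and Canx -0.13 (-0.342 to 0.0817, adjusted p = 0.937). This comparison shares its CBP_EE arrays with the housing comparison in cbp+/- mice, so both medians are not separate evidence.

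Dnajb5 was the member that differed by genotype in every same-numbered pair. It had 8.13, 8.15 and 8.16 in CBP_EE, against 8.01, 8.13 and 7.87 in WT_EE. In standard cages it had 7.96, 7.92, 8.62, 8.34 and 8.13 in CBP_SC, against 7.80, 7.75, 8.54, 8.14 and 7.97 in WT_SC. It was higher in cbp+/- mice in 8 of 8 pairs, as in 1.08% of all genes. The average difference was 0.15 log2 (-0.115 to 0.41, adjusted p = 0.999), small beside the range of its standard-cage arrays over the sets. With the pairs as a block its SE was 0.0362 and the adjusted p 0.243. Its average housing difference was -0.043, against 0.153 once array sets entered the fit as blocks (adjusted p = 0.138). Hspa2 was higher in cbp+/- mice in 1 of 8 pairs, with an average of -0.070 (-0.184 to 0.0438, adjusted p = 0.999). Over all members the genotype average had a median of 0.0449 with 28 of 36 higher, against -0.0102 and 42.9% over all genes (0.0113 and 56% with dim genes left out), and limma called 0 members (0% of all genes, 0 of 36 at an unadjusted p under 0.05, against 4.04%, of which 1.46% higher and 2.58% lower). For this average with the pairs as a block, 2 of 36 were higher and 1 lower at an unadjusted p under 0.05. The shares of all genes were 6.58% and 5.4%. In the unpaired fit, Bag3 had 0.10, Hspa8 0.055 and Hspa5 0.088, each with an adjusted p of 0.999.

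Chaperone genes varied more between arrays of the same group than most genes. The median SD within groups was 0.173 log2 over members, against 0.132 over all genes, and a median of 59.1% of this variance lay between the array sets, against 45.7% over all genes. The sets were made from these arrays, which raises both shares. Manf had 93.0%, Calr 88.9%, Hspa2 85.9% and Dnajb11, an ER DNAJ co-chaperone, 82.2%, while Pdia4 had 7.87% and Hspa8 22.9%. The standard-cage arrays show the size: their means per set ranged over a median of 0.395 log2 per member, against 0.226 for all genes. For comparison, the median size of the average difference was 0.077 for housing and 0.0557 for genotype. A range of 4 means is larger than a difference of 2 partly by its construction.

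Members did not follow the sets together. Calr in standard cages had means of 10.28, 10.85, 10.13 and 10.15 in sets 1 to 4, and Dnajb5 had 7.86, 8.58, 8.24 and 8.05, both highest in set 2. Hsph1 had 10.73, 10.33, 10.63 and 10.65, and Hsp90aa1 12.28, 11.89, 12.10 and 12.18, both lowest in set 2. Stip1, Dnaja1, Dnajb11 and Manf were highest in set 4. Calr had 10.92 on CBP_SC_3 with the high choroid plexus markers, and 10.77 on WT_SC_3, where those markers were low (-0.27). Hspb8, by contrast, had 7.38 on CBP_SC_3 and 6.70 on WT_SC_3.

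Several members have more than 1 probe set, and these did not always give the same answer. There were 8 such genes, 2 of them with 3 probe sets. HSP70, HSP90 and HSP60 genes have processed pseudogenes with near-identical sequence, and the sources used here do not say which probe set lies on the gene itself. For Hspa8, the probe set with the lowest mean had 12.13, 11.75 and 11.40 in CBP_EE, against 11.98, 11.95, 12.11, 11.86 and 12.14 in CBP_SC, and 11.72, 11.82 and 11.28 in WT_EE, against 11.87, 11.94, 12.00, 12.21 and 11.55 in WT_SC. It was lower in enrichment by an average of -0.28 (-0.531 to -0.0265, adjusted p = 0.228), where the brightest probe set had -0.036. The 2 Hspb1 probe sets had 0.221 and 0.223 in wild-type mice, and those of Hspe1 and Dnajc3 differed as little. For Dnaja1 the probe sets had 0.228 and 0.0783 in cbp+/- mice, and 0.0783 and 0.218 in wild-type mice.

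Partner genes of the same pathways were about evenly split between higher and lower in both housing comparisons, and mostly higher in the arrays labelled cbp+/- in the genotype comparisons. Of 59 listed genes of the unfolded protein response, cytosolic folding and mitochondrial protein quality control, 55 were measured and 0 passed the adjusted threshold in any of the 7 comparisons with limma (0% of all genes). In cbp+/- mice 27 of 55 were higher in enrichment, where 55.5% of all genes were (46.3% with dim genes left out). There 1 had an unadjusted p under 0.05, against 2.75%. In wild-type mice 24 of 55 were higher, where 59.2% of all genes were (40% with dim genes left out). At an unadjusted p under 0.05, 2 were higher and 2 lower there, against 14.6% and 3.5% of all genes (4.7% and 4.41% with dim genes left out). Between genotypes, 37 of 55 were higher in CBP_EE than in WT_EE (41.1% of all genes), and 41 of 55 in CBP_SC than in WT_SC (54%). With dim genes left out, 56.3% and 53.7% of all genes were higher. The medians of the partner genes were 0.061 and 0.0218. Derl3, a part of ER-associated degradation, had 6.04 ± 0.067 in CBP_EE and 5.89 ± 0.063 in CBP_SC, and 6.15 ± 0.065 in WT_EE and 5.95 ± 0.13 in WT_SC (SD, n = 3 and 5). Its average difference was 0.17 (0.0689 to 0.273, adjusted p = 0.142). Its signals were about as dim as those of Hspb1, in whose brightness class all genes had a median average difference of 0.0956.

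The ER stress sensors were not called either. Eif2ak3, the sensor kinase PERK, had -0.17 in cbp+/- mice (adjusted p = 0.999) and -0.077 in wild-type mice, with an average of -0.12 (-0.23 to -0.0196, adjusted p = 0.205). Ern1, the sensor IRE1, had -0.17 and -0.048, and the sensor and transcription factor Atf6 0.012 and -0.12. Of the other transcription factors, Xbp1 had -0.011 and -0.010, Atf4 -0.011 and 0.014, and Ddit3 (CHOP) 0.061 and 0.047, in cbp+/- and wild-type mice. Sec61b, a subunit of the ER translocon, had 0.062 in cbp+/- and 0.29 in wild-type mice (adjusted p = 0.999 and 0.207), and the mitochondrial HSP90 gene Trap1 0.048 and -0.22 (adjusted p = 0.999 and 0.19). Fkbp4, an HSP90 co-chaperone, had 0.10 and -0.0078, and Dnajb2, a neuronal DNAJ co-chaperone, -0.15 and -0.22.

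Of the cold-inducible RNA-binding protein genes, Cirbp ran lower in enrichment than in standard cages, while the groups of Rbm3 overlapped more. Cirbp had 8.44, 8.56 and 8.38 in CBP_EE, against 8.83, 8.78, 8.39, 8.63 and 8.81 in CBP_SC, and 8.15, 8.40 and 7.73 in WT_EE, against 8.76, 8.72, 8.38, 8.70 and 8.91 in WT_SC. Only replicate 3 of each standard-cage group fell within the range of the enriched arrays. The differences were -0.22 in cbp+/- mice (adjusted p = 0.999) and -0.60 in wild-type mice (-0.908 to -0.291, adjusted p = 0.114), with an average of -0.41 (-0.63 to -0.193, adjusted p = 0.138). Rbm3 had -0.19 and -0.23 (adjusted p = 0.999 and 0.488). Its signals were 9.73 to 10.03 in CBP_EE against 9.79 to 10.40 in CBP_SC, and 9.52 to 9.91 in WT_EE against 9.64 to 10.34 in WT_SC. Fos, an immediate early gene, had 0.33 and 0.50 (adjusted p = 0.999 and 0.189). Its signals were 6.88, 6.91 and 6.55 in CBP_EE, against 6.31, 6.41, 6.68, 6.35 and 6.52 in CBP_SC. They were 7.30, 7.04 and 6.36 in WT_EE, against 6.08, 6.35, 6.59, 6.35 and 6.63 in WT_SC. In set 4, WT_EE_3 thus lay below WT_SC_5, and CBP_EE_3 lay close to CBP_SC_5.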

How the data were processed

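Hippocampal RNA of pools of 4 mice was measured on 16 arrays, with group and replicate number read from each sample's title. The authors deposited linear intensities, with 1 value for each array and probe set. Per the labels' protocols the software was GeneSpring GX, and RMA is named in the submitters' processing notes. The sources used here give no version, baseline transformation or genome build of the array. Scanner files were not used here, and the number of arrays limits precision. Of 28815 probe sets, 23385 were in the platform's gene table; 21780 named exactly 1 gene and were tested, and 1605 named several.

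Log2 intensities were fitted with limma 3.58.1 in R 4.3.3 as 4 group means over all arrays (12 residual degrees of freedom), with eBayes and Benjamini-Hochberg adjustment over all tested probe sets at 0.05. The 7 comparisons were housing in each genotype, genotype in each housing, their interaction and both averages. Differences are on the log2 scale with 95% intervals of the moderated fit. Medians over members are descriptions. Members and gene lists were chosen with earlier results of these data known.

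Named genes were the 5 members with the smallest p per comparison, a fixed list of members, the 3 partner genes with the smallest p per housing comparison, and Crebbp, Fos, Cirbp and Rbm3. Further genes are named where a count or range needed them, chosen after their values were seen. Array sets came from average-linkage clustering of deviations from group means, cut at 4. Same-numbered arrays of both genotypes deviated together within each housing (r = 0.593, 0.544, 0.693, 0.733 and 0.767 in standard cages, 0.257, 0.306 and 0.629 in enrichment). The numbers were therefore taken to pair genotypes within housing. Such arrays also fall in the same set, and differently numbered arrays were not compared. Pairing by number and shared sets thus cannot be told apart. On simulated data for wild-type housing with 21780 probe sets, the fit recovered 75% of 100 genes changed 1.5-fold and 97% of 100 changed 2-fold. It also called 13 unchanged probe sets. The simulated noise was independent between arrays and held no array sets and no shift with brightness, unlike the data. Changes under 1.5-fold, such as those of the members, were not simulated. Alternatives were quantile normalization, array weights, trended and robust variances, omission of dim probe sets, blocks, smaller fits, the mean of all probe sets of a gene, and leaving out each array. A planned comparison of protein C-termini was not run.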

Additional observations from a re-analysis of the deposited data

Results flagged for a closer look

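In 72 groups of 5 standard-cage arrays (36 members in both genotypes), 7 held an array that stood far from the other 4, where chance gives about 1 group in 20. The share over all genes was not computed, and the 72 groups come from the same arrays, so they are not independent. Of the 7, 5 were in set 2, which was itself clustered from the values of these arrays. On CBP_SC_3, Hspa4l (an HSP110 protein) had a log2 signal of 9.33, Hsph1 10.32 and Hspd1 9.43, each below the other 4 arrays of its group, whose ranges began at 9.47, 10.62 and 9.91. Calr was above them on the same array, at 10.92 against 10.31 for the next. Hspd1 was also low on WT_SC_3, at 9.58 against 9.94 for the next. Hspa5 was low on CBP_SC_4, at 9.77 against 10 for the next, and Dnajb11 high on CBP_SC_5, at 8.76 against 8.37. The causes were not tested.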

How the results depend on the processing

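With limma, 0 probe sets were called in each of the 7 comparisons. Array weights ranged from 0.261 (WT_EE_3) to 8.63 (CBP_EE_1). With them, the calls among 21780 probe sets were 1039 for housing in cbp+/- mice, 5254 for housing in wild-type mice and 6167 for the housing average. They were 2474 for genotype in enrichment, 429 for the interaction and 152 for the genotype average. Under these weights 16 of 252 member differences over the 7 comparisons were called, beside the many calls among all probe sets. Among the 16 were the housing averages of Hspa5 (0.179, adjusted p = 0.0025) and Hspb8 (0.31, adjusted p = 0.00409) and Pdia3 in wild-type mice (-0.328, adjusted p = 0.0107). The genotype calls among them were Pdia3 and Hspb1 in enrichment, and Pdia3 was called in the interaction. No other alternative called a member. Trended and robust variances gave 96 calls for wild-type housing and 5 for the housing average. The array sets as a block gave 15 for wild-type housing, 15 for the housing average and 1 for the genotype average. The replicate block over all arrays gave 326 for the housing average. The replicate block within housing changed no call at the adjusted threshold. Across housings the numbers were not taken to pair the arrays (r = 0.365, 0.288 and -0.0435 in cbp+/-, -0.265, -0.0124 and -0.394 in wild-type mice).

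The cytosolic median of wild-type housing was 0.122 with quantile normalization and -0.0229 with array weights. Leaving out 1 array gave 0 to 19 calls for wild-type housing and 0 to 230 for the housing average, both highest without CBP_EE_3. Medians of all members then ran from 0.00459 to 0.135 for housing in cbp+/-, -0.0327 to 0.103 for housing in wild-type mice and -0.0197 to 0.0958 for the interaction. Cytosolic medians ran from 0.00459 to 0.136 for housing in cbp+/- mice, 0.0283 to 0.127 for genotype in enrichment and 0.0152 to 0.104 for the interaction. Causes were not tested.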

Other observations

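Some partner genes differed between genotypes in enrichment at a small unadjusted p, and were singled out after their values were seen. Trap1, the mitochondrial HSP90, had 8.91 ± 0.058 in CBP_EE and 8.61 ± 0.21 in WT_EE (SD, n = 3 each), a log2 difference of 0.31 (0.12 to 0.491, limma adjusted p = 0.924), with every CBP_EE array above every WT_EE array, as in 3.67% of all genes. Hspa14, a ribosome-associated HSP70, had 0.22 (adjusted p = 0.924), and Os9, a lectin of ER-associated degradation, 0.26. All 4 measured partner genes of mitochondrial protein quality control were higher in CBP_EE than in WT_EE, with a median of 0.183. Of the 3 mitochondrial members, only 1 was higher in that comparison, with a median of -0.000209. Of all genes 41.1% were higher, and 56.3% with dim genes left out. No adjusted p among these partner genes was under 0.05.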
